A study of Mus musculus with 24 samples.

Results

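When mouse embryonic stem cells (ES) are taken through a progenitor state (NP) to terminal neurons (TN), some genes are high only in between. On 6 arrays of wildtype cells of the mixed 129Sv-C57Bl/6 strain, 2 per stage, 69 of 18194 measured genes read at least 2.5 higher on the log2 scale at NP than at ES and also at least 2.5 higher at NP than at TN. That double step is what makes a gene a member of the set described here. It was met by 85 genes, of which 16 were left out by name because their symbols begin with a fixed set of family names (Crabp1, Crabp2, Cyp26a1, Cyp26b1, Dhrs3, Hoxb1, Hoxb5os, Hoxd1, Neurog1, Neurog2, Pax6, Rarb, Sox17, Sox3, Stra8 and Wnt1). The members were chosen by the values of these 6 arrays, which are therefore a description and carry no test.

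A second platform, which the choice did not use, measured cells of the strain Black Agouti 129 with and without REST, a zinc finger protein that holds neuronal genes off in other cell types. Its 18 arrays form 6 groups of 3. RESTko and RESTwt arrays were made at ES and at NP, while at TN the RESTko arrays are set against RESThet arrays, from heterozygous knock-out cells. Of the 69 members, 68 were measured there, among 19938 genes; Gm15050, a predicted gene, was not. The cells of both platforms were differentiated by a published protocol, and the labels do not say whether replicates came from separate cultures or how many clones stand for a genotype, so every p-value below measures the spread between these arrays. All values are log2 probe-set signals as deposited. They compare arrays for 1 gene, not one gene with another. In such bulk RNA, fewer cells of a type and less RNA per cell cannot be told apart.

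The labels were first checked. The ES markers Pou5f1 and Nanog read 11.2 to 11.4 at ES, and Pou5f1 still averaged 7.05 ± 0.87 and 7.50 ± 0.61 in NP arrays labelled RESTko and RESTwt (SD, n = 3 each). Nanog averaged 7.97 ± 0.91 and 8.26 ± 0.56 in the same arrays, and 7.23 ± 0.78 and 6.73 ± 1.47 in TN_RESTko and TN_RESThet arrays. Map2 and Syt1, neuronal genes, averaged at least 11.08 in both TN groups. The NP marker Nes averaged 9.18 ± 0.11 and 8.74 ± 0.21 at NP in RESTko and RESTwt arrays, against 5.51 to 6.52 at the other stages. Pax6, Msi1, Vim and Prom1 also read highest at NP. Sox1 rose little, to 7.24 ± 0.07 and 7.09 ± 0.04 at NP, against 6.44 to 6.51 at the other stages. Rest itself did not follow every label. It averaged 8.61 ± 0.07 in RESTko and 8.96 ± 0.02 in RESTwt arrays at ES, 7.47 ± 0.09 and 7.48 ± 0.03 at NP, and 7.37 ± 0.09 in RESTko and 7.03 ± 0.03 in RESThet arrays at TN. Which part of the gene this probe set reads was not tested, and genotypes are given below as labelled.

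Progenitors of this kind divide, respond to Notch, hedgehog, BMP and Wnt signals, and take on positions along the neural tube through transcription factors that are silenced again as neurons mature. The differentiation passes through cell aggregates, which can also form endoderm and mesenchyme. The 69 genes hold transcription factors of the neural tube, of endoderm and of mesenchyme, and genes of the hedgehog, BMP and Wnt pathways. None was in the list of Notch pathway genes read below. For reading they were arranged, after their values had been seen, into 8 roles: 10 neural tube transcription factors, 8 endoderm and mesenchyme transcription factors, 8 growth and progenitor regulators, 11 receptors, 4 genes of retinoid handling, 7 of the extracellular matrix, 8 liver and epithelial products, and 13 enzymes and other genes.

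On the 6 arrays the median member read 3.56 at ES, 7.56 at NP and 3.65 at TN, and all 69 had both NP arrays above every ES and TN array. Dbx1, a homeobox factor of ventral spinal cord progenitors, had the largest smaller step, 5.46: it read 3.56 and 3.56 at ES, 9.14 and 8.89 at NP, and 3.26 and 3.35 at TN. Foxa1, Car3, Car14, Rbp4, Ackr3, Arg1, Antxr2, Nepn, Npr3, Msx3 and Igdcc3 followed. The median of the smaller step was 3.16 and the lowest 2.51. Just inside the threshold lay Mnx1 and S1pr3 at 2.54 and Tspan8 at 2.52. Just outside it lay Foxp4 at 2.46 and Gm266 at 2.44. TN was lower than ES for 33 members and at least 1 higher than ES for 12, so the return at TN was not to the same level in each. Among 60 further probe sets of 30 members, 52 also read highest at NP and 25 met the threshold themselves.

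The stretch just before the gene start was read for what the members share that the choice did not use. RefSeq promoters of GRCm38.p6 were at hand for 51 members and 27025 genes. In the 250 bases before the start, on either strand, the motif CAGCTG, an E-box of proneural factors, was held by 11.8% of members and 14.7% of all genes. TGGGAA, the core bound by RBPJ of the Notch pathway, was held by 21.6% and 24.1%. TGACAG, a core bound by MEIS factors, was held by 17.6% and 18%. Each of these 3 shares was close to that of all genes, and none was higher in the members. TATAAA, the letters of the TATA box, was added after the sequences had been seen and was counted anywhere in the 250 bases. It was held by 25.5% of members and 14.3% of all genes. A gene held a motif if any of its promoters did. The 51 members had 72 promoters and the 27025 genes 32851, so the members had more promoters per gene in which to hold one. Over promoters, of which a gene can have several, the median GC content was 57.8% in 72 promoters of members and 52.4% in all 32851. The median number of CpG dinucleotides was 10 and 6. These are descriptions of letters in a window, without a test. Promoters of 4 members that the results below turn on are shown, 5′ to 3′ on the gene's strand and ending at the start, with the 4 motifs in capitals. Dbx1 lies at chr7:49636836-49637085 on the minus strand, Foxa1 at chr12:57546112-57546361 on the minus strand, Cpm at chr10:117629250-117629499 on the plus strand and Cxcl15 at chr5:90794284-90794533 on the plus strand.
Dbx1: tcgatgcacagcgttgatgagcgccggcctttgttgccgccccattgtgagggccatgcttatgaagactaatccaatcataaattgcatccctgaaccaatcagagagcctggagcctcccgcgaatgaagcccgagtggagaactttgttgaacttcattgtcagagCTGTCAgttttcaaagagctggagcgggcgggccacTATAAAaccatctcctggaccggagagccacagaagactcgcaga
Foxa1: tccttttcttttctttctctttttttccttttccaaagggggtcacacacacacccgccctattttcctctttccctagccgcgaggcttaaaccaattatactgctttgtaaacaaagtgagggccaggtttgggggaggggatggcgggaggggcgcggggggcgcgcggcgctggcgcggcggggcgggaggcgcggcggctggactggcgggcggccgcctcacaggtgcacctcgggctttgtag
Cpm: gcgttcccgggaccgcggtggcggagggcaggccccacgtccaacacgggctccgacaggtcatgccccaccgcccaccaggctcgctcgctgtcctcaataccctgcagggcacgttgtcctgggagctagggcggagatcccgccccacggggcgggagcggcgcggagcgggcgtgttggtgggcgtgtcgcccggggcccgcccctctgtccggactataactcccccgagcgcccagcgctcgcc
Cxcl15: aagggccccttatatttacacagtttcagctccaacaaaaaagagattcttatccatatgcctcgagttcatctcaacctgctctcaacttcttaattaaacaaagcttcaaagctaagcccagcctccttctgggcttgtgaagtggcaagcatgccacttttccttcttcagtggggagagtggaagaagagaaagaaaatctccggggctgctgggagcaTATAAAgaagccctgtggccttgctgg
The Dbx1 window holds TATAAA on the gene's own strand, starting 45 bases before the gene start, and TGACAG on the opposite strand, where it reads CTGTCA. Cxcl15 holds TATAAA starting 27 bases before the gene start. None of the 4 motifs is in the Foxa1 and Cpm windows, which are rich in CpG, with 21 and 30 against 12 in Dbx1 and 2 in Cxcl15. The GC content is 62.0% for Foxa1, 74.4% for Cpm, 52.8% for Dbx1 and 46.4% for Cxcl15.

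On the 18 arrays the members went up and came down again in both genotypes. By limma, with a Benjamini-Hochberg adjusted p under 0.05 over all genes, 67 of 68 rose at NP over ES in RESTko arrays, where 32.2% of all genes were called higher, and 66 rose in RESTwt arrays, where the share was 31.0%. None fell in either, where 33.9% of all genes in RESTko and 36.1% in RESTwt arrays were called lower. At TN 59 fell below NP in RESTko arrays, against 29.2% of all genes, and 63 fell in the step to TN_RESThet from NP_RESTwt, against 29.9% of all genes. In that last step stage and genotype change together. In the series the NP samples of this platform are numbered apart from its ES and TN samples. Whether they were also processed apart was not tested, and such a split could not be told apart from stage. In the opposite direction 5 members were higher at TN in RESTko arrays, against 41.8% of all genes. From NP_RESTwt to TN_RESThet arrays 3 were higher, against 43.2% of all genes. Both calls together, a peak, were met by 59 members (86.8%) in RESTko arrays, against 11.2% of all genes, and by 62 (91.2%) in RESTwt and RESThet arrays, again against 11.2% of all genes. The steps of the median member were smaller than on the 6 arrays. The smaller step had a median of 1.60 in RESTko arrays and 1.63 in RESTwt and RESThet arrays, against 3.18 for the same 68 genes on the 6 arrays, and it reached 2.5 in 13 and 16 members. The steps on the 6 arrays also chose the members, at 2.5 or more, so this comparison favours the 6 arrays from the start. The platforms differ as well in strain, probes and array. The part of the choice and of each of these was not tested. The members' median rise was 2.08 in RESTko and 2.33 in RESTwt arrays, beside -0.04 and -0.07 for all genes. Their median change at TN was -1.68 in RESTko arrays, beside 0.13, and -1.78 from NP_RESTwt to TN_RESThet arrays, beside 0.14. Centring each array on its median moves the all-gene median of the NP minus ES step in RESTwt arrays to -0.40 and that of the step to TN_RESThet to -0.04.

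**Figure D1:**
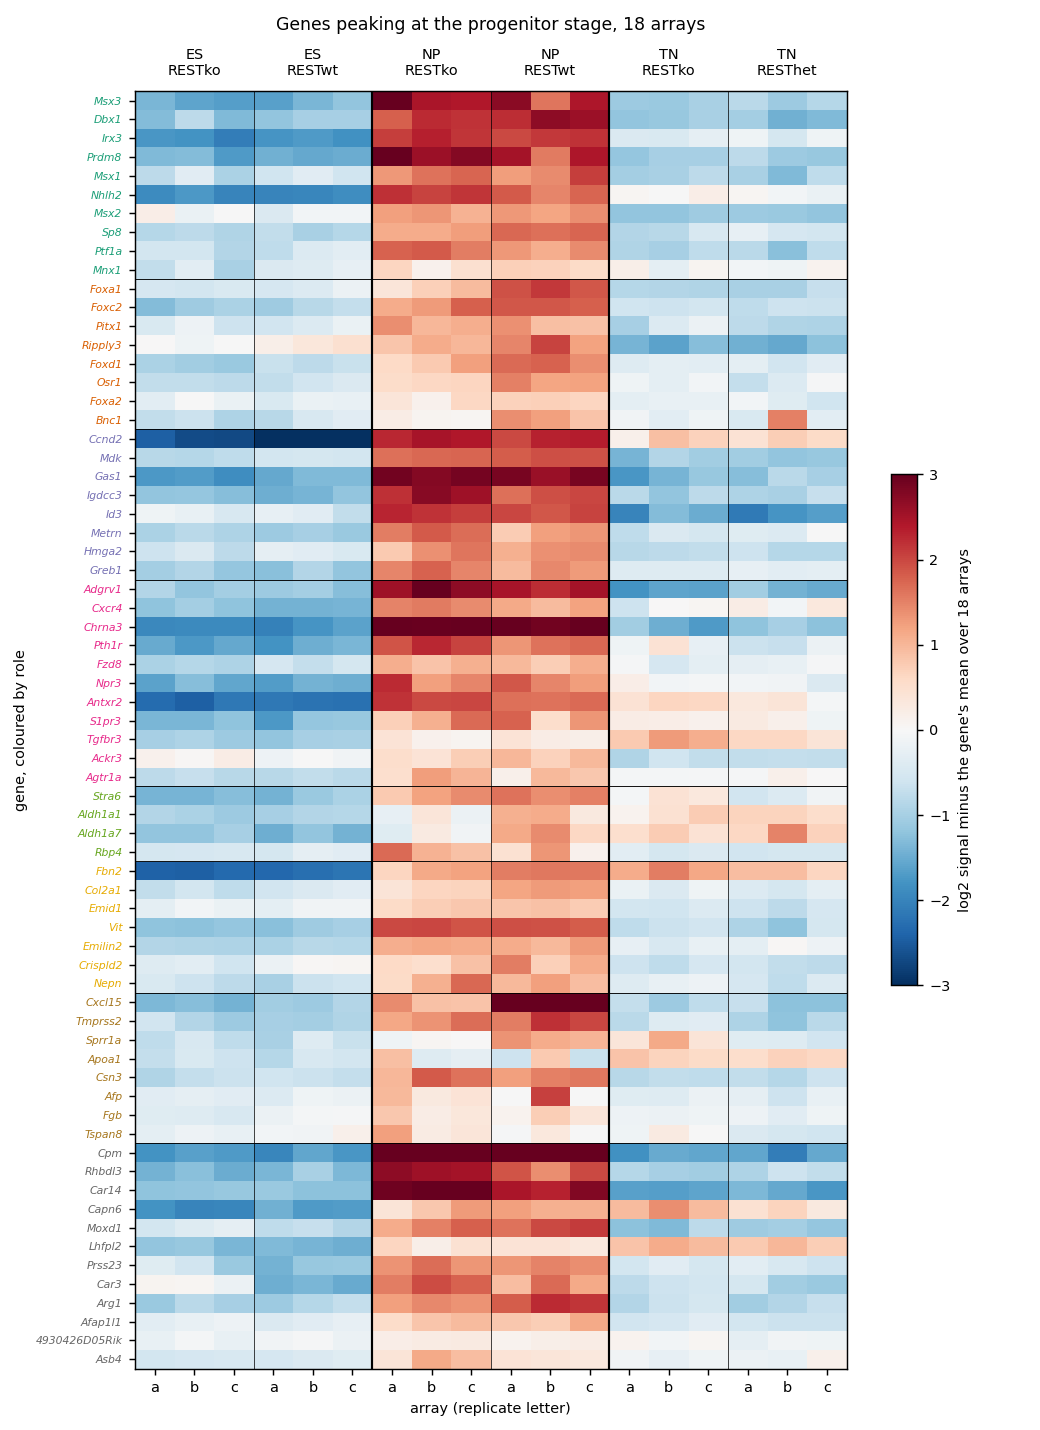
Each row is 1 of 68 genes and each column 1 of 18 arrays; colour is the log2 signal minus the gene's mean over the arrays, cut at 3 either way, with gene names coloured by their 8 roles. The NP columns are the warm block for nearly every gene, with cooler RESTko than RESTwt cells at NP for Foxa1, Cxcl15, Sprr1a and Aldh1a7.

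All 10 neural tube transcription factors peaked in both genotypes. These factors divide the progenitors into domains along the back-to-belly axis or switch them toward neurons. Dbx1 read 8.19, 8.65 and 8.58 in the NP arrays labelled RESTko, against 8.61, 9.09 and 8.97 in those labelled RESTwt. Its ES and TN arrays all lay between 4.97 and 5.63. The NP arrays stood far above both ends of the course, and the 2 genotypes overlapped at NP. The NP minus ES step of Dbx1 was 3.20 ± 0.16 (SE) in RESTko and 3.55 ± 0.16 in RESTwt arrays (limma adjusted p = 5.19e-12 and 1.48e-12), and the genotype difference at NP, -0.42 ± 0.16, was not called (adjusted p = 0.131). Msx3, a homeobox factor of the dorsal neural tube, read 9.80, 9.11 and 9.05 in NP_RESTko arrays and 9.37, 8.26 and 9.10 in NP_RESTwt arrays. Irx3, an Iroquois factor of the intermediate neural tube, read 8.71, 8.97 and 8.79 in NP_RESTko arrays and 8.63, 8.77 and 8.81 in NP_RESTwt arrays. Neither separated the genotypes, and the Irx3 step was 4.05 ± 0.11 in RESTko and 3.86 ± 0.11 in RESTwt arrays. Irx3 stayed above its start: it read 6.12 to 6.50 over the 6 TN arrays, against 4.58 to 4.94 over the 6 ES arrays.

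Nhlh2, a neuronal bHLH factor, and Prdm8, a repressor of the PRDM family in developing neurons, were higher in RESTko arrays at NP, and Sp8, a zinc finger factor of the forebrain and of neural patterning, was lower. Nhlh2 read 7.44, 7.26 and 7.37 in NP_RESTko arrays and 7.09, 6.69 and 6.98 in NP_RESTwt arrays. Prdm8 read 9.16, 8.60 and 8.79 in NP_RESTko arrays and 8.53, 7.60 and 8.45 in NP_RESTwt arrays. Sp8 read 5.59, 5.59 and 5.72 in NP_RESTko arrays and 6.21, 6.12 and 6.24 in NP_RESTwt arrays. In all 3 genes the arrays of the 2 genotypes did not overlap. The differences were 0.44 ± 0.10, 0.65 ± 0.19 and -0.56 ± 0.10 (SE, limma adjusted p = 0.0132, 0.043 and 0.0026). With each of the 18 arrays left out in turn, the call was lost in 2 fits for Nhlh2 (without NP_RESTko a or NP_RESTwt b, adjusted p up to 0.0892), in 12 for Prdm8 (up to 0.234, without NP_RESTwt b) and in none for Sp8. Mnx1, the homeobox factor of motor neurons, had the smallest rises of this role, 1.09 ± 0.15 in RESTko and 1.02 ± 0.15 in RESTwt arrays. Its fall in RESTko arrays was only -0.43 ± 0.15 (limma adjusted p = 0.0196), with overlapping NP and TN arrays. That call was lost in 3 fits with 1 array left out (up to 0.12, without TN_RESTko b). Mnx1 was also near the threshold on the 6 arrays, where its NP arrays read 6.34 and 4.66.

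The growth and progenitor regulators held several of the steepest courses, and all 8 peaked in both genotypes. Ccnd2, the D-type cyclin that drives progenitors into the cell cycle, read 11.45, 11.65 and 11.59 in NP_RESTko arrays and 11.16, 11.48 and 11.53 in NP_RESTwt arrays. It rose by 4.99 ± 0.15 in RESTko and 5.36 ± 0.15 in RESTwt arrays and fell only in part, to 9.34 to 10.07 over the 6 TN arrays. Gas1, a membrane protein that binds sonic hedgehog, read 10.65, 10.52 and 10.63 in NP_RESTko arrays and 10.60, 10.34 and 10.60 in NP_RESTwt arrays. At TN the same gene returned to 6.00 to 6.93, near its ES arrays at 5.88 to 6.44. Id3, an inhibitor of bHLH factors and a target of BMP signals, ended below every ES array: it read 5.18, 5.86 and 5.67 in TN_RESTko arrays and 5.03, 5.38 and 5.49 in TN_RESThet arrays, against 6.42 to 7.03 at ES. Mdk, the growth factor midkine, fell at TN by 2.81 ± 0.10 in RESTko arrays and by 3.01 ± 0.10 in the step to RESThet arrays. Hmga2, a chromatin protein of early neural stem cells, and Greb1 also peaked in both genotypes.

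Igdcc3, a receptor-like protein of the immunoglobulin superfamily, and Metrn, a secreted factor of glial and axonal development, were higher at NP in RESTko arrays. Igdcc3 read 9.55, 10.08 and 9.88 in NP_RESTko arrays and 9.0, 9.29 and 9.35 in NP_RESTwt arrays. Metrn read 8.97, 9.27 and 9.10 in NP_RESTko arrays and 8.19, 8.66 and 8.76 in NP_RESTwt arrays. Neither gene's arrays overlapped between genotypes. The differences were 0.63 ± 0.14 and 0.58 ± 0.14 (limma adjusted p = 0.00776 and 0.012, with 0.0588 for Metrn without NP_RESTko b).

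Of 11 receptors, 10 peaked in each genotype. Chrna3, a subunit of nicotinic acetylcholine receptors, read 8.41, 8.26 and 8.45 in NP_RESTko arrays and 8.70, 8.18 and 8.56 in NP_RESTwt arrays, against 3.26 to 4.29 over all ES and TN arrays. Its rise of 5.0 ± 0.15 in RESTko and 4.99 ± 0.15 in RESTwt arrays was followed by a fall of similar size at TN. That fall was -4.49 ± 0.15 in RESTko arrays and -4.34 ± 0.15 from NP_RESTwt to TN_RESThet arrays. Adgrv1, a large adhesion receptor, and Pth1r, the receptor of parathyroid hormone, peaked in both. Cxcr4 and Ackr3 both bind the chemokine Cxcl12. Cxcr4 rose by 2.63 ± 0.14 in RESTko and 2.51 ± 0.14 in RESTwt arrays, while Ackr3 read only 5.29 to 5.61 in NP_RESTko arrays and 5.56 to 5.88 in NP_RESTwt arrays, against 4.73 to 5.10 at ES. Antxr2, which binds matrix and anthrax toxin, was the 1 receptor called between genotypes at NP: it read 7.91, 7.73 and 7.76 in NP_RESTko arrays and 7.40, 7.37 and 7.45 in NP_RESTwt arrays, a difference of 0.39 ± 0.11 (limma adjusted p = 0.0288, lost in 5 fits and 0.143 without NP_RESTko a). Tgfbr3, the TGF-beta co-receptor, did not come down. It read 6.64, 7.13 and 6.94 in TN_RESTko arrays and 6.49, 6.49 and 6.25 in TN_RESThet arrays, against 5.94 to 6.27 at NP. The TN minus NP step was called higher both in RESTko arrays, at 0.84 ± 0.12, and from NP_RESTwt to TN_RESThet arrays, at 0.28 ± 0.12. The second call was lost in 4 of the fits with 1 array left out (limma adjusted p up to 0.125, without NP_RESTwt c).

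The endoderm and mesenchyme transcription factors were the role with the most genes called lower at NP: 5 of 8 were lower in RESTko arrays and none higher, while over all 68 members 14 were lower (20.6%, against 3.71% of all genes) and 8 higher (11.8%, against 4.32% of all genes). The 22 calls came down to 14 without NP_RESTko a, and to 12 with the NP arrays fitted alone. Foxa1 is a pioneer factor of endoderm that also marks the floor plate. It read 5.62, 5.96 and 6.20 in NP_RESTko arrays, against 7.15, 7.37 and 7.10 in NP_RESTwt arrays. The ES arrays lay at 4.69 to 5.07 and the TN arrays at 4.27 to 4.54. So the RESTko arrays rose less, without overlap at NP, and the 2 genotypes overlapped again at TN. The rise was 1.19 ± 0.12 in RESTko and 2.33 ± 0.12 in RESTwt arrays, the difference at NP was -1.28 ± 0.12, a 2.43-fold lower signal (limma adjusted p = 3.86e-06), and the difference between the rises, -1.14 ± 0.18, was called itself (adjusted p = 0.000856). Foxa2, its close relative, differed by -0.31 ± 0.13 at NP and was not called (adjusted p = 0.158).

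Osr1, a factor of intermediate mesoderm, read 5.33, 5.38 and 5.42 in NP_RESTko arrays and 6.28, 5.95 and 5.99 in NP_RESTwt arrays. Foxd1, a factor of kidney stroma and of the retina, read 5.38, 5.56 and 6.02 in NP_RESTko arrays and 6.47, 6.55 and 6.17 in NP_RESTwt arrays. Ripply3, a corepressor of the pharyngeal region, read 5.68, 5.95 and 5.83 in NP_RESTko arrays and 6.31, 6.86 and 6.05 in NP_RESTwt arrays. In each of the 3 genes every RESTko array lay below every RESTwt array. The differences were -0.70 ± 0.13, -0.75 ± 0.13 and -0.58 ± 0.15 (limma adjusted p = 0.0026, 0.00149 and 0.0242, the last lost without NP_RESTko a, NP_RESTko c or NP_RESTwt b, at up to 0.135). Foxc2, a factor of mesenchyme and vessels on chromosome 8, differed by -0.45 ± 0.13 (adjusted p = 0.048, lost in 14 of 18 fits and 0.274 without NP_RESTko a). Of all genes on chromosome 8, 30.9% were called lower in NP_RESTko arrays, against 2.34% on the other chromosomes, and the chromosome's part in the Foxc2 value was not tested. Bnc1, a zinc finger factor of epithelia, had the large difference of -1.04 ± 0.33 and was not called (adjusted p = 0.0625). TN_RESThet array b read 5.81 for it, while the other TN_RESThet arrays read 3.86 and 3.98.

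Markers of some other cell types also differed between genotypes at NP. Of 19 measured endoderm and epithelial markers, 4 of them members, 7 were lower (3.71% of all genes) and 1 was higher (4.32%) in NP_RESTko arrays. The other stages ran the other way. At ES 5 of the 19 were higher in RESTko arrays (5.19% of all genes) and 1 was lower (4.05%). At TN 2 were higher (0.356% of all genes) and none was lower (0.802%). Where a list holds members, its count is not separate from theirs. The 15 that are not members averaged 6.83 to 6.94 in the NP_RESTko arrays and 7.04 to 7.37 in the NP_RESTwt arrays. The keratin Krt19 averaged 8.23 and 9.50, and the bladder plaque gene Upk1a 5.93 and 7.34, in NP_RESTko and NP_RESTwt arrays. Gata4 ran the other way, at 7.03 and 6.31. Of 29 mesoderm and fibroblast markers, 2 of them members, 7 were lower in NP_RESTko arrays (3.71% of all genes) and none was higher (4.32%). Of 16 neural crest markers, 2 of them members, 2 were lower (3.71% of all genes) and 1 was higher (4.32%) there. Of 13 endothelial and blood markers 3 were lower (3.71%) and none was higher (4.32%). Of 12 astrocyte and oligodendrocyte markers none was called at NP. Of 20 pan-neuronal markers, none a member, 13 were higher in NP_RESTko arrays (4.32% of all genes) and none was lower (3.71%). The median difference was 0.63. The mean level of the 20 was 8.34 to 8.69 over the NP_RESTko arrays and 7.43 to 8.04 over the NP_RESTwt arrays. At ES 10 of the 20 were already higher in RESTko arrays (5.19% of all genes) and none was lower (4.05%), with a median difference of 0.46. Whether this list reads more neurons or the genotype's effect on neuronal genes was not tested. The part of other cell types in the members' differences, higher or lower, was not tested either.

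**Figure D2:**
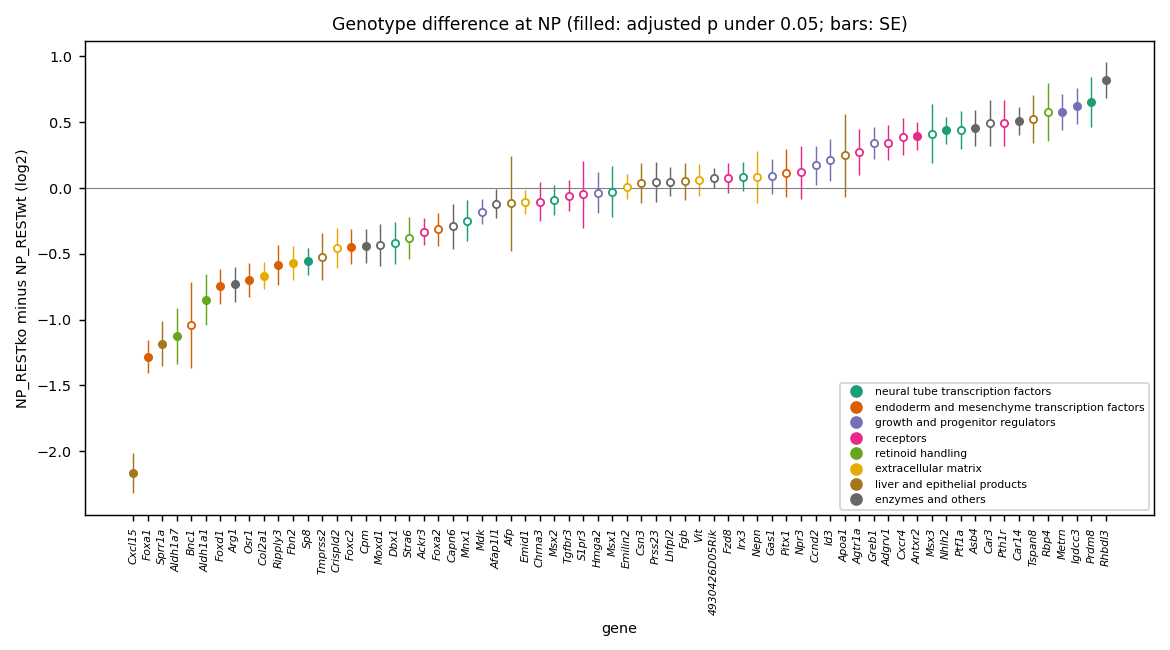
Each point is 1 of 68 genes, placed by its difference at NP, RESTko minus RESTwt on the log2 scale, with its SE and coloured by role; filled points have a limma adjusted p under 0.05. The 14 filled points on the left run from Cxcl15 to Cpm and the 8 on the right end at Rhbdl3.

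Of the liver and epithelial products, Cxcl15 and Sprr1a differed most between genotypes. Cxcl15, a chemokine of lung epithelium in the mouse, read 5.21, 4.67 and 4.64 in NP_RESTko arrays, against 7.17, 6.98 and 6.87 in NP_RESTwt arrays. The ES and TN arrays of both genotypes lay between 2.38 and 3.09. It thus peaked in both genotypes, but to separate heights. The rise was 2.39 ± 0.15 in RESTko and 4.22 ± 0.15 in RESTwt arrays, and the NP difference of -2.17 ± 0.15 was the largest among the 68 genes, a 4.49-fold lower signal (limma adjusted p = 9.35e-08). Sprr1a, a cornified envelope protein that injured neurons also make, read 4.98, 5.18 and 5.13 in NP_RESTko arrays and 6.47, 6.22 and 6.14 in NP_RESTwt arrays. At TN the order was turned: it read 5.48, 6.24 and 5.51 in TN_RESTko arrays, against 4.76, 4.73 and 4.55 in TN_RESThet arrays. So in RESTko arrays Sprr1a kept rising instead of peaking. The differences were -1.18 ± 0.17 at NP and 1.07 ± 0.17 at TN (limma adjusted p = 0.000287 and 0.00345). Tmprss2, an epithelial protease, and Csn3, a milk casein, peaked in both genotypes without a genotype call at NP.

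Afp, Apoa1, Fgb, Rbp4 and Tspan8, all but the last secreted by visceral endoderm and liver, moved between single arrays rather than between genotypes; they were grouped after their values had been seen. On the 6 arrays, NP array b was higher than NP array a for each: Afp read 5.05 and 7.12, Tspan8 4.40 and 6.69, and Rbp4 8.17 and 9.71 in arrays a and b. On the 18 arrays Afp read 4.88, 4.19 and 4.31 in NP_RESTko arrays and 3.88, 5.96 and 3.88 in NP_RESTwt arrays. Apoa1 read 6.28, 4.99 and 5.13 in NP_RESTko arrays and 4.77, 6.17 and 4.72 in NP_RESTwt arrays. Array a of NP_RESTko and array b of NP_RESTwt were therefore the high ones, for all 5 genes. The mean of the 5 was 5.47, 4.63 and 4.70 in NP_RESTko arrays and 4.33, 5.39 and 4.31 in NP_RESTwt arrays. Ttr, another product of visceral endoderm and no member, was highest in the same arrays, at 5.0, 4.38 and 4.40 in NP_RESTko arrays and 4.46, 4.90 and 4.47 in NP_RESTwt arrays. None of the 5 was called between genotypes at NP, with adjusted p from 0.09 for Tspan8 to 0.926 for Afp. The rise of Afp depended on single arrays too. That rise, 0.88 ± 0.36 in RESTko and 0.91 ± 0.36 in RESTwt arrays, had adjusted p = 0.0395 and 0.0336, against 0.154 without NP_RESTko a and 0.252 without NP_RESTwt b. The call was lost in 5 and 4 of the fits with 1 array left out, while no such fit lost a called rise of Fgb, Rbp4 or Tspan8. Tspan8 rose by 0.83 ± 0.18 in RESTko arrays, and its 0.10 ± 0.18 in RESTwt arrays was not called (adjusted p = 0.643). Apoa1 was not called at NP over ES in either genotype (adjusted p = 0.0685 and 0.208), and at TN it read 5.97 to 6.24 in RESTko arrays and 5.90 to 6.09 in RESThet arrays. The TN minus NP step was called higher only from NP_RESTwt to TN_RESThet arrays, 0.78 ± 0.32 (limma adjusted p = 0.0335). That call was lost in 4 of the fits with 1 array left out (up to 0.168, without NP_RESTwt c).

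**Figure D3:**
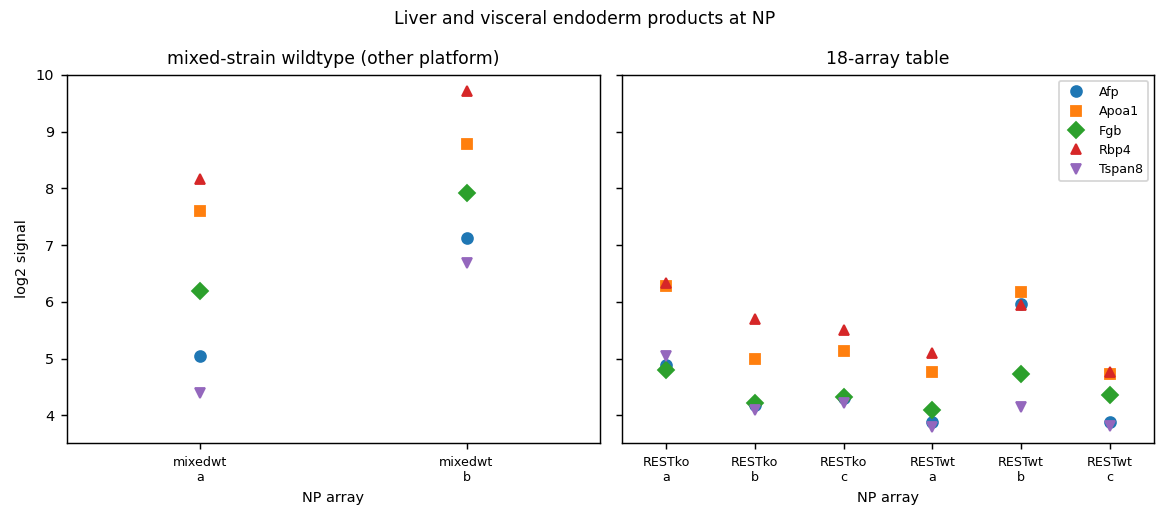
Log2 signal of Afp, Apoa1, Fgb, Rbp4 and Tspan8 in the single NP arrays, on the platform with 2 mixed-strain wildtype arrays (left) and in 3 RESTko and 3 RESTwt arrays (right). All 5 are highest together in array b of the mixed strain, while on the right array a of RESTko and array b of RESTwt lie above their fellows.

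Retinoic acid drives this kind of differentiation, and 4 members handle retinoids. Stra6, the membrane receptor that takes retinol into cells, and Rbp4, the plasma carrier of retinol, peaked in both genotypes. Aldh1a1, an enzyme that makes retinoic acid, and Aldh1a7, its close paralog in rodents, peaked in neither. Aldh1a7 read 4.01, 4.64 and 4.27 in NP_RESTko arrays and 5.51, 5.80 and 4.99 in NP_RESTwt arrays, and at TN it read 4.89, 5.14 and 4.80 in RESTko and 5.0, 5.87 and 5.07 in RESThet arrays. At TN every array of both genotypes stood above the ES arrays, which read 2.91 to 3.39. In RESTko arrays the TN minus NP step was called higher for both genes (0.64 ± 0.21 and 0.46 ± 0.19 for Aldh1a7 and Aldh1a1, limma adjusted p = 0.0137 and 0.0405), though lost without NP_RESTko a (0.0737 and 0.156) and in 1 and 3 further fits. The NP differences were -1.13 ± 0.21 and -0.85 ± 0.19 (limma adjusted p = 0.00296 and 0.00991), and Aldh1a1 lost its call without NP_RESTko a or NP_RESTwt b (up to 0.0658). The 2 genes are close paralogs whose probes may share signal, so their separate values are uncertain.

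The extracellular matrix genes rose in both genotypes, and Col2a1 and Fbn2 were lower in RESTko arrays at NP. Col2a1, the collagen of cartilage and notochord, read 6.96, 7.23 and 7.24 in NP_RESTko arrays and 7.75, 7.86 and 7.81 in NP_RESTwt arrays. Fbn2, a microfibril protein of embryonic tissue, read 7.20, 7.70 and 7.76 in NP_RESTko arrays and 8.09, 8.14 and 8.15 in NP_RESTwt arrays. Both were separate between genotypes at NP, by -0.67 ± 0.10 and -0.57 ± 0.13 (limma adjusted p = 0.000461 and 0.0115, with 0.073 for Fbn2 without NP_RESTko a). At TN Fbn2 stayed high, at 7.66, 8.11 and 7.72 in TN_RESTko and 7.48, 7.50 and 7.21 in TN_RESThet arrays, and in RESTko arrays no fall was called (0.27 ± 0.13, adjusted p = 0.072). Vit, a matrix protein with vWA domains, had the same course in both genotypes, with a rise of 3.16 ± 0.12 in RESTko and 2.99 ± 0.12 in RESTwt arrays.

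Among the enzymes and other genes, Cpm, a membrane carboxypeptidase, had the tallest peak of the 68 genes in both genotypes. It read 8.64, 8.71 and 8.56 in NP_RESTko arrays and 8.96, 9.14 and 9.12 in NP_RESTwt arrays, against 3.37 to 3.93 over the 12 ES and TN arrays. Its smaller step was 4.82 in RESTko arrays and 5.35 in RESTwt and RESThet arrays. The NP difference of -0.44 ± 0.13 was called, without overlap, but with an adjusted p of 0.0436; it was lost in 10 of 18 fits with 1 array left out (0.158 without NP_RESTwt b). Rhbdl3, a rhomboid-family protein, was the member most raised in RESTko arrays at NP, at 9.13, 8.97 and 8.94, against 8.33, 7.84 and 8.41 in NP_RESTwt arrays. Car14, a membrane carbonic anhydrase, read 8.58, 8.82 and 8.67 in NP_RESTko arrays and 8.11, 7.98 and 8.44 in NP_RESTwt arrays. Arg1, the arginase of the urea cycle, went the other way, at 5.74, 5.97 and 5.87 in NP_RESTko and 6.34, 6.77 and 6.67 in NP_RESTwt arrays. The 3 differences were 0.82 ± 0.14, 0.51 ± 0.11 and -0.73 ± 0.13 (limma adjusted p = 0.000899, 0.00599 and 0.0019), and in none of the 3 did the arrays overlap between genotypes. Asb4, a subunit of ubiquitin ligases, was the last of the 8 members called higher, by 0.46 ± 0.14; its arrays overlapped and the call was lost in 15 of 18 fits (adjusted p up to 0.225, without NP_RESTko b).

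**Figure D4:**
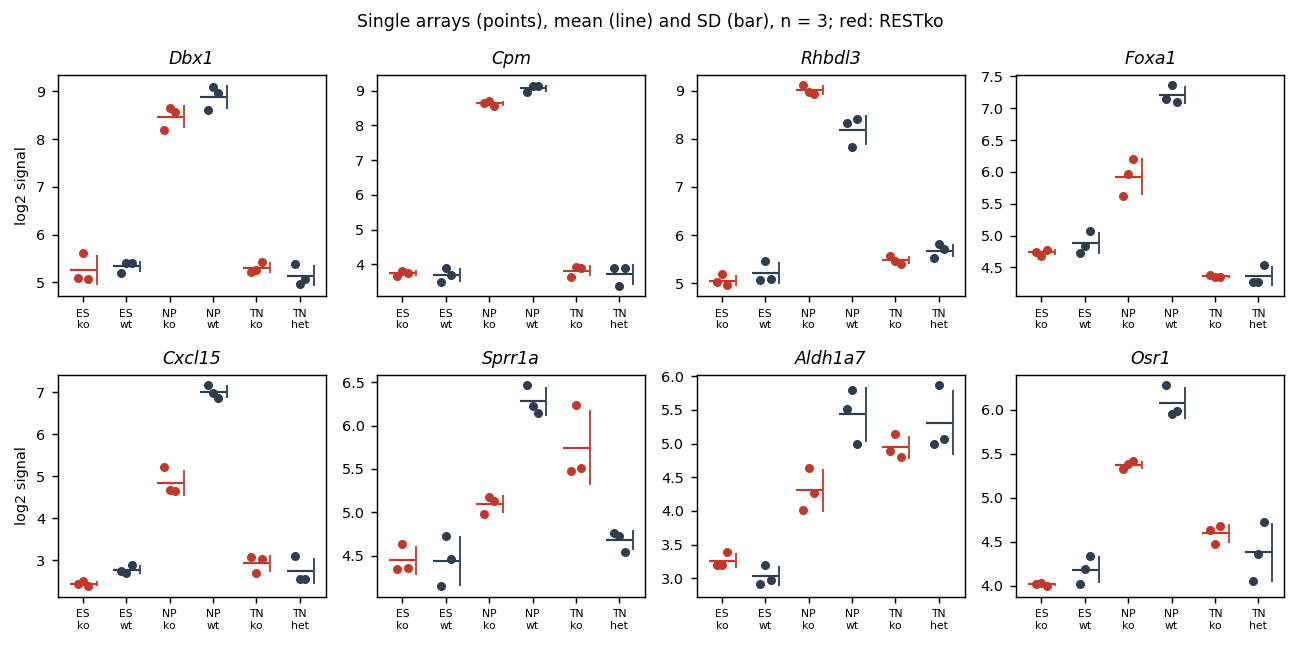
Log2 signal of 8 members in each of the 18 arrays (points), with group means (lines) and SD (bars), n = 3 per group, RESTko in red to the left of RESTwt or RESThet. Dbx1 and Cpm peak in both genotypes, Rhbdl3 is higher and Cpm, Foxa1, Cxcl15, Sprr1a, Aldh1a7 and Osr1 are lower in RESTko arrays at NP, and Sprr1a is higher in RESTko arrays at TN.

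Fewer members were called between genotypes at ES and TN than at NP. At ES 3 members were higher in RESTko arrays (5.19% of all genes were) and none lower (4.05% of all genes). Car3, a muscle and fat carbonic anhydrase, read 5.72, 5.69 and 5.46 in ES_RESTko arrays and 4.17, 4.26 and 4.11 in ES_RESTwt arrays. Its groups were far apart, by 1.44 ± 0.17 (limma adjusted p = 2.63e-05), and the lead was no longer called at NP (0.50 ± 0.17, adjusted p = 0.0942). Ccnd2 and the protease Prss23 were each higher by 0.54 ± 0.15 at ES, and both calls were lost in 5 of 18 fits (adjusted p 0.124 and 0.173 without ES_RESTko a). At TN 2 members were higher in RESTko arrays (0.356% of all genes), Sprr1a and, by 0.50 ± 0.12 with adjusted p = 0.0482 that was lost in 15 of 18 fits (up to 0.201, without TN_RESThet c), Tgfbr3, and none was lower (0.802% of all genes). With the compared groups fitted alone, 11 members were called at ES, and both calls at TN were lost. The shares of all genes above belong to the fit of 18 arrays, so the count of 11 has no such share beside it. A value without a call at TN does not show that the genotypes were alike there.

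A called peak was missing in at least 1 genotype for 10 members: Apoa1, Aldh1a1, Aldh1a7, Lhfpl2 and Tgfbr3 in both, Capn6, Fbn2, Bnc1 and Sprr1a in RESTko arrays, and Tspan8 in RESTwt and RESThet arrays. Lhfpl2, a tetraspan membrane protein, read 7.43, 7.68 and 7.51 in TN_RESTko and 7.35, 7.57 and 7.31 in TN_RESThet arrays, against 6.73 to 7.22 over the NP arrays. It therefore went on rising in both genotypes. Capn6, a calpain-like protein that stabilizes microtubules, read 7.50, 7.95 and 7.48 in TN_RESTko arrays and 7.0, 7.20 and 6.83 in TN_RESThet arrays, where NP arrays read 6.93 to 7.82. On the 6 arrays the same gene stood at 4.57 and 4.50 at TN. The smallest called rise was that of 4930426D05Rik, an unnamed transcript, 0.41 ± 0.08 in RESTko and 0.27 ± 0.08 in RESTwt arrays, and the RESTwt value turned to -0.06 with each array centred on its median and to -0.09 after quantile normalization.

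**Figure D5:**
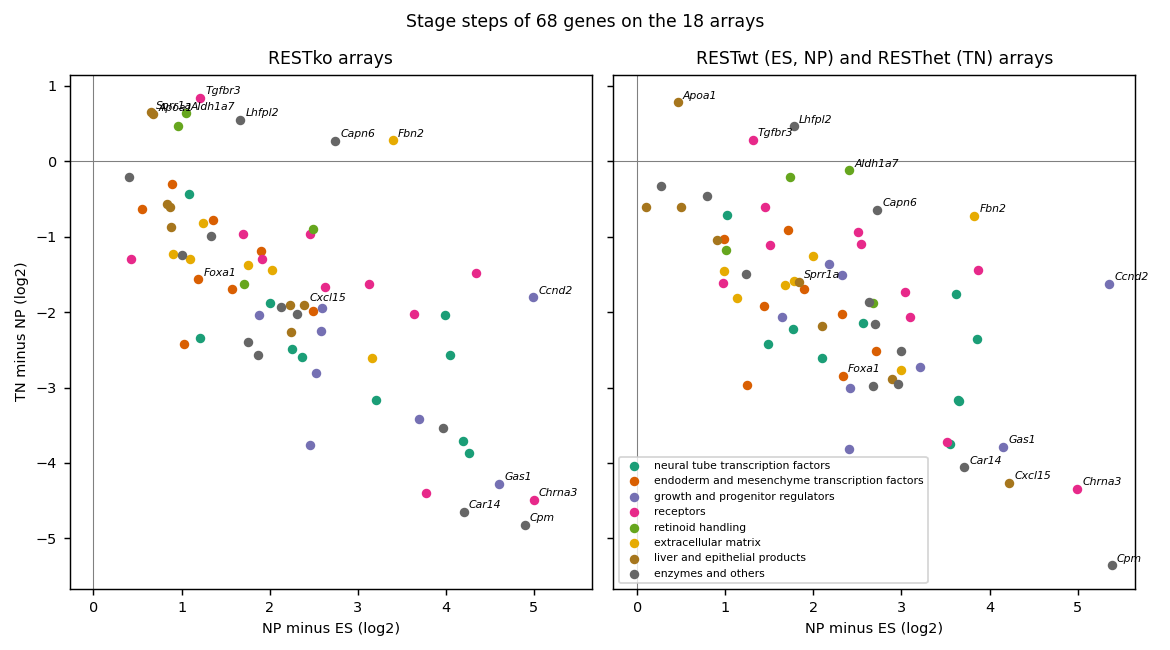
Each point is 1 of 68 genes on the 18 arrays: the NP minus ES step across and the TN minus NP step down, both log2, for RESTko arrays (left) and RESTwt with RESThet arrays (right), coloured by role. Most points lie at the lower right, Cpm and Chrna3 farthest, and Lhfpl2, Tgfbr3 and Apoa1 lie above 0 on the vertical axis in both panels.

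The difference between the genotypes' rises was called for 9 members, 8 with a smaller rise in RESTko arrays (2.55% of all genes) and Rhbdl3 with a larger one (2.31% of all genes). Without ES_RESTko a the count was 5. The difference between the falls was called for 15, and for 8 with the compared groups fitted alone. It was positive in 11 (1.40% of all genes), which were less lowered or not lowered at TN in RESTko arrays, and negative in 4 (2.51% of all genes). That contrast sets TN_RESTko minus NP_RESTko against TN_RESThet minus NP_RESTwt, so it holds a heterozygous group in place of a wildtype one. It also shares the NP arrays with the contrast of the rises, with opposite sign, so the counts of rises and falls are not separate.

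The signalling pathways around these genes were read from lists that also hold genes outside the 69. Of 30 Notch pathway genes, none a member, 15 peaked in RESTko arrays and 14 in RESTwt and RESThet arrays. The ligand Dll3 averaged 8.21 and 7.78 at NP in RESTko and RESTwt arrays, against 4.94 to 5.38 at the other stages, and the feedback inhibitor Nrarp 8.42 and 8.05, against 5.45 to 5.97. Of 18 hedgehog pathway genes, 9 peaked in each. Besides Gas1, the co-receptor Boc averaged 9.03 and 8.63 at NP in RESTko and RESTwt arrays. Of 38 BMP and TGF-beta genes 16 peaked in each, and of 38 Wnt receptors, inhibitors and targets 18 in each. Of 30 FGF pathway genes 6 peaked in each. Of 72 regional homeobox genes 26 peaked in RESTko arrays and 23 in RESTwt and RESThet arrays, and of 42 bHLH and zinc finger factors of neurogenesis 27 and 25. For all genes the share with a peak was 11.2%. Further, 1 cell cycle gene of 23 peaked in RESTwt and RESThet arrays and none in RESTko arrays, and 6 of 19 endoderm and epithelial markers peaked in RESTko arrays, against 13 in RESTwt and RESThet arrays. No test was made of any list, or of the difference between these counts.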

How the data were processed

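Total RNA was hybridized to Affymetrix arrays of 2 platforms. The authors deposited log2 signals per probe set, with oligo 1.14.0 per the submitters' processing notes; how background, summary and scaling were handled (not given in the sources used here) is unknown, and the values entered as deposited. Probe sets with 1 gene symbol were kept, from a probe table with GEO's platform annotation, and a gene was represented by the probe set with the highest mean. The median gene read 5.46 to 5.53 in ES arrays, 5.80 to 5.87 in NP arrays and 5.93 to 6.03 in TN arrays, and arrays of a group correlated at 0.992 to 0.998. With 3 arrays a group, and no depth to count, precision rests on array number, and a genotype difference had a median SE of 0.10.

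One mean per group was fitted to the 18 arrays with limma 3.58.1 in R 4.3.3 (lmFit, eBayes, two-sided), with p-values adjusted by Benjamini-Hochberg over 19938 genes and called under 0.05. The fit was tested on simulated data. A fold is 2 to the power of the difference. The platforms were never joined. The members, gene lists, motifs and naming rule were chosen with earlier results of these data known. The rule names the 12 largest steps, the 10 largest called differences per genotype comparison and 8 per interaction, the smallest rises and falls (8 each), listed members and the threshold's neighbours; other members were named to fill a role after their values were seen. Alternatives were the replicate block, other fits, scalings, membership thresholds and each array left out.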

Additional observations from a re-analysis of the deposited data

Results flagged for a closer look

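The genotype labels differed in the size of a stage step for 9 members at the rise and 15 at the fall, by limma's test of the interaction over all genes (adjusted p under 0.05). Values are differences of log2 differences, RESTko minus RESTwt for NP minus ES.

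The rise was smaller in RESTko arrays for Cxcl15 by -1.83 ± 0.22 (SE, adjusted p = 0.000116) and for Foxa1 by -1.14 ± 0.18. The values were -1.36 ± 0.30 for Aldh1a7 and -1.19 ± 0.24 for Sprr1a. Car3, which started higher at ES in RESTko arrays, had -0.94 ± 0.24, and Moxd1, a monooxygenase-like protein, -0.81 ± 0.23. Sp8 had -0.56 ± 0.15 and Ackr3 -0.55 ± 0.14. Only Rhbdl3 among the members was called with a larger rise, 0.97 ± 0.19 (adjusted p = 0.0057).

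For the fall, TN_RESTko minus NP_RESTko was set against TN_RESThet minus NP_RESTwt. The largest positive values were 2.35 ± 0.22 for Cxcl15 (adjusted p = 7.91e-06), 2.25 ± 0.24 for Sprr1a (adjusted p = 3.21e-05) and 1.28 ± 0.18 for Foxa1. The same 3 genes had smaller rises. Both interactions hold the genotype difference at NP, with opposite sign, so a low NP_RESTko signal enters both and the overlap is no second result. Among matrix and mesenchyme genes Fbn2 had 1.00 ± 0.19, Osr1 0.92 ± 0.19, Foxd1 0.82 ± 0.19 and Col2a1 0.82 ± 0.14. Arg1 had 0.92 ± 0.19, Capn6 0.92 ± 0.24, Tmprss2 0.98 ± 0.25 and the retinol receptor Stra6 0.98 ± 0.23. The fall was larger in RESTko arrays for Rhbdl3, at -1.02 ± 0.19, for Metrn, at -0.89 ± 0.19, for Adgrv1, at -0.68 ± 0.18, and for Car14, at -0.59 ± 0.15. With each array left out in turn, the calls of Adgrv1 and Moxd1 were lost in 14 of 18 fits each, Capn6 in 12, Car14 in 9, and Ackr3, Car3, Sp8 (rise) and Tmprss2 in 8 each, with adjusted p from 0.0865 to 0.119 at most. Stra6 was lost in 4 fits and Foxd1 without NP_RESTwt b alone (0.0515).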

How the results depend on the processing

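The called peaks depended little on the processing, the genotype calls at ES and TN most. All shares are percentages of members called, without the share of all genes in the same setting. Fitting the compared groups alone gave 16.2% at ES, 17.6% at NP, 0.0% at TN and 11.8% for the fall interaction. Median centring gave 4.41% at TN, quantile normalization 2.94% at ES, and array weights 11.8% at ES and 1.47% at TN. Among genes with steps of at least 2 the ES share was 10.6%; with steps of at least 3 the TN share was 0.0%, and with probe sets averaged it was 1.89%. The cause was not tested. The NP minus ES step of 4930426D05Rik in RESTwt arrays turned to -0.06 with median centring and -0.09 with quantile normalization. With 1 array left out, from the fit or from the choice of members, the share ranged from 1.47% to 7.35% at ES, 20.6% to 32.8% at NP (lowest without NP_RESTko replicate a), 1.47% to 5.88% at TN, 7.35% to 14.7% for the rise interaction (lowest without ES_RESTko replicate a) and 14.7% to 23.5% for the fall interaction. Peaks ranged from 82.1% to 89.1% in RESTko and 88.1% to 93.8% in RESTwt and RESThet arrays. The steps ranged from 95.5% to 100% (NP over ES) and 82.4% to 89.1% (TN under NP) in RESTko, and from 94.2% to 98.6% and 89.6% to 94.1% in RESTwt and RESThet arrays. Over all groups the replicate letters did not mark pairs: 10 of 45 same-letter pairs of deviations correlated above 0.1, as did 20 of 90 other pairs. Between NP_RESTko and NP_RESTwt arrays, though, same letters correlated at 0.40 for a, 0.31 for b and 0.01 for c. Unlike letters ran there from -0.355 to 0.113, so a pairing of the NP arrays is not excluded. With the replicate block 33.8% of members were called at NP, 4.41% at ES and 2.94% at TN, and peaks stayed at 86.8% and 91.2%; Tgfbr3 lost its call at TN and Adgrv1, Capn6 and Car14 theirs for the fall interaction. Of the 22 genotype calls at NP, 12 (9 lower, 3 higher) passed in each of 18 fits that left out 1 array.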
